A study of Mus musculus with 5 samples.

Results

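Claudins are small membrane proteins that join neighbouring cells at the tight junction. Each cell type makes its own mix of them, and the mix sets how leaky the layer is and which ions pass between the cells. Most claudins seal: Cldn1 is the main sealing claudin of stratified epithelia such as the epidermis, Cldn5 is that of endothelium, and Cldn3, Cldn4, Cldn7 and Cldn8 belong to epithelia of the colon and other organs. Cldn2 and Cldn15 instead form channels for small cations, and Cldn2 is known as a claudin of the intestinal crypt. Cldn23 is found in differentiated cells at the surface of the colon. The 9 genes named here (Cldn1, Cldn2, Cldn3, Cldn4, Cldn5, Cldn7, Cldn8, Cldn15 and Cldn23) were chosen by name, with no rule on measured values, from 29 claudin family genes among the 23176 genes counted. Earlier results of these data were known when the choice was made. The 9 genes held 86741 UMIs (unique molecular identifiers, which mark single captured RNA molecules), against 6316 for the other 20 family genes.

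The UMIs came from 8491 single cells of 5 inDrop libraries of mouse colon, all from mice labelled WT. In 4 libraries the cells came from colon tumors that azoxymethane and dextran sodium sulfate (AOM/DSS) had induced, in mice that were then given 5-FU and Irinotecan: day 1 replicate 1, day 1 replicate 2, day 3 and day 6. The study took the day 1 libraries as early and day 3 with day 6 as late replicates, so every tumor library was treated with the drugs, and the late group joins different days. The methods of the study call these days post-treatment, with tissue taken after the last cycle, although elsewhere they are worded as days of the regimen. The remaining library, called normal here, was an untreated WT colon dissociated to free fibroblasts, and it also held epithelium and vessels. The labels do not give the age of the mice, and tumor and normal libraries differ in dissociation as well as in disease. Day 1 replicate 1 and day 3 had the single index library structure, and the others the dual index structure. Values of the tumor libraries are given below in the order day 1 replicate 1, day 1 replicate 2, day 3 and day 6.

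Cells were named from markers that held no claudin or other junction gene, and each name is only a likeness. Columnar-like cells, the lining cells of colon and of its tumors without goblet and enteroendocrine cells, numbered 251, 856, 928 and 739 in the tumor libraries and 328 in the normal library. Squamous-like cells, which carry the keratins of stratified epithelium, numbered 55, 185, 271 and 737, and none were found in the normal library. Blood endothelial-like cells numbered 12, 61, 61 and 14 in the tumors and 48 in the normal library, and lymphatic endothelial-like cells 3, 36, 25, 82 and 21. All markers of the columnar, squamous, blood endothelial and lymphatic lists that were in the files had UMIs in the cells of that name in every library. The same lists named the clusters, so this is no test of the names. Immune-like cells (described below) of day 1 replicate 2 had UMIs of every such marker too. The day 3 endothelial cells were the least distinct: the 12 blood endothelial markers summed to 3659.9 UMIs per 1000000 UMIs (CPM) there, against 9252 to 10178 in the other tumor libraries, and the 7 lymphatic markers to 2657 against 9285 to 21068. Another 486 cells of day 1 replicate 2 and 628 of day 6 were epithelial but carried more leading genes of Paneth or goblet cells than of columnar cells, and were left unnamed.

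The 9 genes lie on 5 chromosomes, 4 of them autosomes of the mouse genome (GRCm38). Cldn4 (chr5:134945119-134946934) and Cldn3 (chr5:134986214-134987472) are neighbours on opposite strands, 39279 bases apart, and Cldn15 (chr5:136966616-136975858) is on the same chromosome. Cldn5 (chr16:18776847-18778262), Cldn1 (chr16:26356642-26371841) and Cldn8 (chr16:88560828-88563183) are spread over chromosome 16, Cldn7 is at chr11:69964779-69967885, Cldn23 at chr8:35824712-35826559 and Cldn2 at chrX:139800828-139811386. Cldn3, Cldn4, Cldn5 and Cldn8 are annotated with 1 exon each.

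RefSeq start sites were at hand for 7 of the 9 genes. The 250 bases before the start are shown for the neighbours Cldn3 and Cldn4, for the channel-former Cldn2 and for the endothelial Cldn5, from RefSeq on GRCm38.p6, 5′ to 3′ on the strand of the gene. Capitals mark 6 motifs searched on both strands: GGGCGG of the GC box, TGANTCA of AP-1 sites, TTTATG of Cdx-type sites, CACCTG of E-boxes, TATAAA of the TATA box and AGATAA of sites for factors of the Gata family.
Cldn3, chr5:134985964-134986213, plus strand: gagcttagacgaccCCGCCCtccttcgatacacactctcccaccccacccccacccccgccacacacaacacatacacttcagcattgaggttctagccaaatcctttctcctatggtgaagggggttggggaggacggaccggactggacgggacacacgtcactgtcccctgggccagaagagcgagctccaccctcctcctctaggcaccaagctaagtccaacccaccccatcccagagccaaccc
Cldn4, chr5:134946935-134947184, minus strand: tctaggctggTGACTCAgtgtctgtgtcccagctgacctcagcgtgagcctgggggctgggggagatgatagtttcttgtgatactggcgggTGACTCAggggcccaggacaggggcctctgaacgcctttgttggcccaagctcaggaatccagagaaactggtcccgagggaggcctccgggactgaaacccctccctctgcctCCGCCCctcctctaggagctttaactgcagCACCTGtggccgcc
Cldn2, chrX:139800558-139800807, plus strand: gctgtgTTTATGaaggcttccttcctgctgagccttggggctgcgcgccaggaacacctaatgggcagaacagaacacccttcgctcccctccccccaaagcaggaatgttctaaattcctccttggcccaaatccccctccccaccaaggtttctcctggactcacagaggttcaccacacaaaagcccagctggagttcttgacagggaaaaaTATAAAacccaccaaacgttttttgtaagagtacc
Cldn5, chr16:18776597-18776846, plus strand: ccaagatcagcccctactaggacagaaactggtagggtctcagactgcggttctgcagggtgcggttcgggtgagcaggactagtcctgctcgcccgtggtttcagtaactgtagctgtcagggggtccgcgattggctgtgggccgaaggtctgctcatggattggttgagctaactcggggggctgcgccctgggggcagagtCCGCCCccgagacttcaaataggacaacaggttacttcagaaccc
The Cldn4 stretch held 2 AP-1 matches, a GC box and an E-box, and the Cldn3 and Cldn5 stretches held a GC box alone. The Cldn2 stretch held a Cdx-type match far from the start and a TATA box near it. Of the 32851 promoter stretches of this length in the table, 32.7% held the GC box, 6.75% the AP-1 letters, 10.8% the Cdx-type, 17.2% the E-box, 12.4% the TATA box and 9.99% the Gata-type letters, which none of the 7 genes held. A match describes these letters and is not a bound site.

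In tumor columnar-like cells Cldn7 was the most counted claudin, followed by Cldn3, Cldn4 and Cldn2 in different orders in the day 1 and day 3 libraries; in day 6 Cldn3 was next and Cldn8 stood above Cldn2 and Cldn4. Cldn7, the major claudin of colon epithelium, stood at 754, 682, 851 and 1959.8 CPM in the 4 tumor libraries and 1662 in normal columnar-like cells. It made up 38.7, 50.3, 34.5 and 73.8% of the UMIs of the 9 genes in the tumors and 61.1% in the normal library, the highest share in each. Cldn3, another sealing claudin, had 433, 266, 669 and 303 CPM in the tumors and 466 in normal cells, inside the tumor range. Cldn4 had 507, 203, 433 and 74.8 CPM in the tumors and 38.8 in the normal library, where its exact 95% Poisson interval was 32.1 to 46.4. Day 6 and normal cells were low in Cldn4, and day 1 and day 3 cells were high. The highest Cldn4 levels were in the single index libraries, day 1 replicate 1 and day 3. The part of library structure in these levels was not tested. Such intervals, here and below, cover counting error only.

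**Figure D1:**
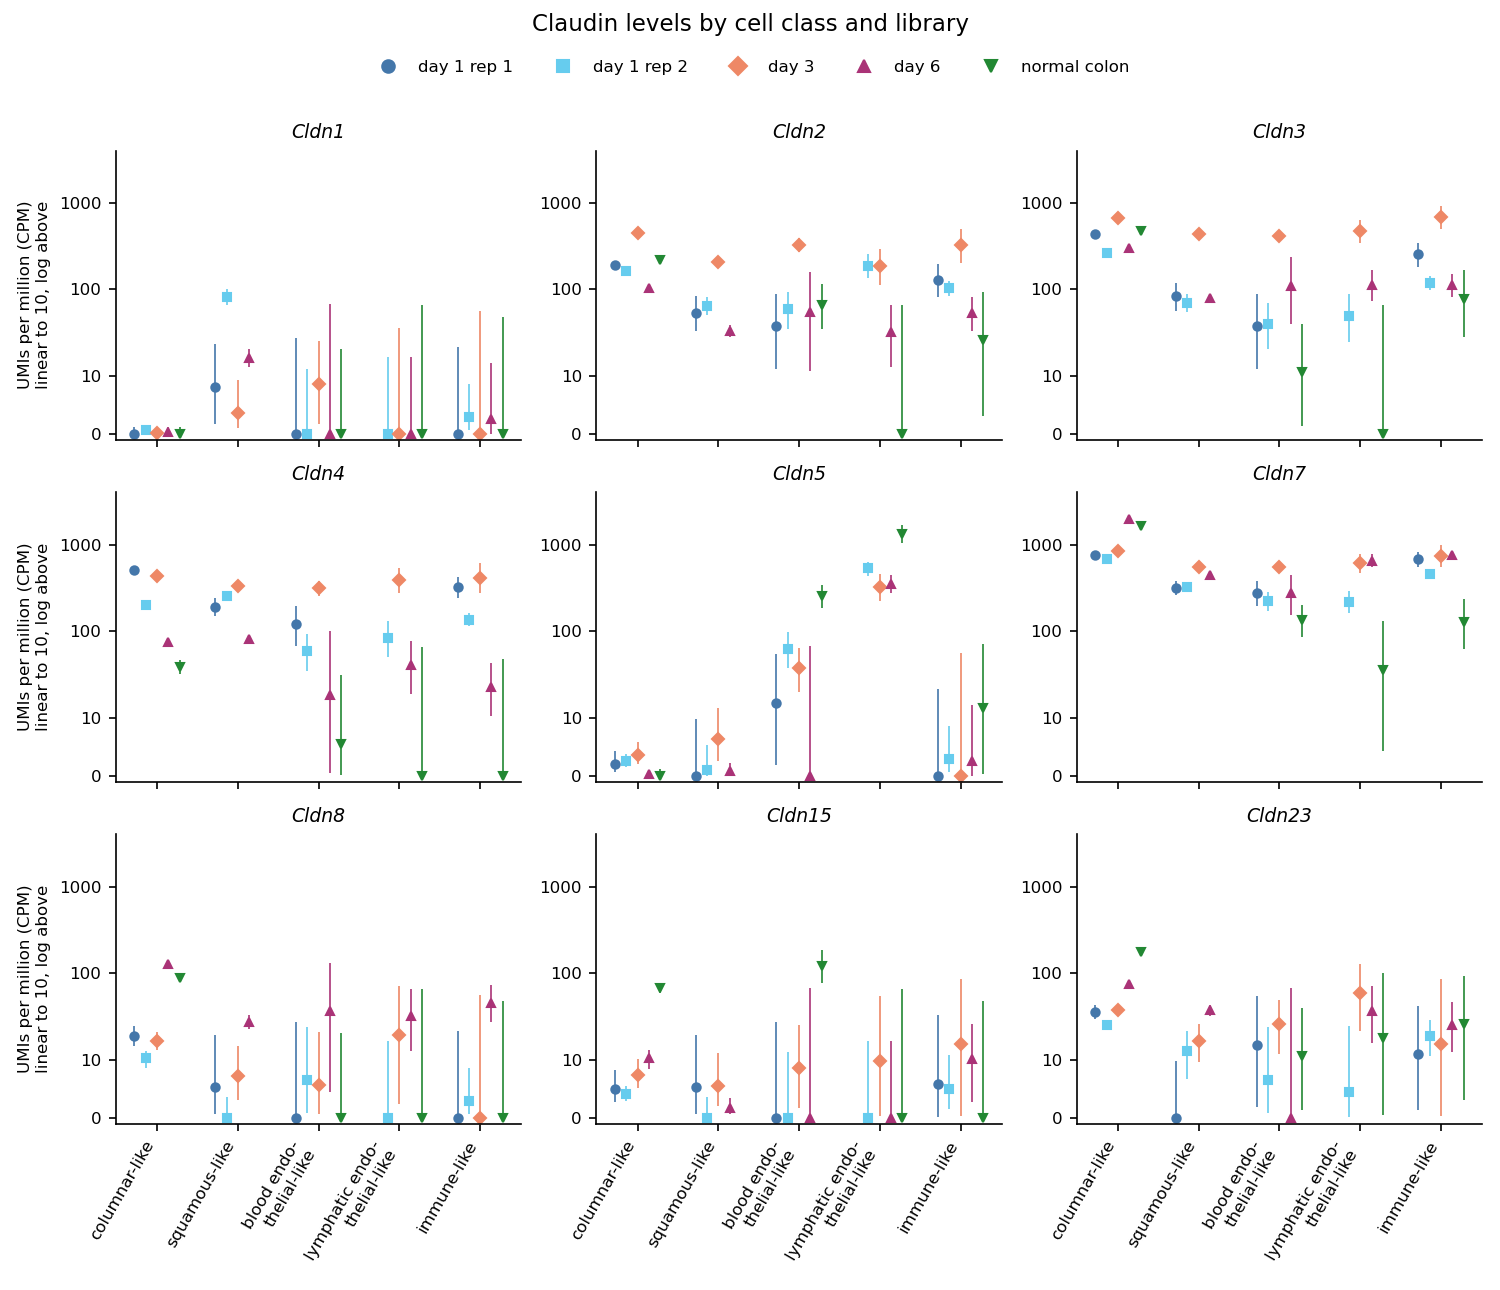
Level of each of the 9 claudins in CPM (vertical axis, linear up to 10 and logarithmic above) in the named cell classes (horizontal axis) of each library; points are single libraries and bars are exact 95% Poisson intervals, which cover counting error only. Cldn1 is highest in squamous-like cells of day 1 replicate 2 (82.6 CPM) and Cldn5 in lymphatic endothelial-like cells of the normal library (1335 CPM), while Cldn2, Cldn3, Cldn4 and Cldn7 are also counted in tumor immune-like cells.

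The channel-former Cldn2 had 193, 162, 451 and 103 CPM in tumor columnar-like cells and 220.4 in normal ones, with day 3 the highest. Of the 928 columnar-like cells of day 3, 357 were of cluster 8, which was only weakly columnar. Its columnar markers had a mean log2 fold of 0.32 against non-epithelial cells, at a median depth of 1685 UMIs. Over all its cells it had 587 CPM of Cldn2 and 617 of Cldn3, and cluster 11, also mostly of day 3, had 573 and 637. Cldn8, a sealing claudin of the distal colon, had 18.9, 10.6, 16.6 and 128 CPM in the tumors and 88.9 in the normal library: day 6 and normal cells were high, the other tumor libraries low. Cldn23 followed with 35.9, 25.5, 37.8 and 75.1 CPM in the tumors and 174 in the normal library. Cldn15, the other channel-former, had 4.99, 4.09, 7.39 and 10.6 CPM in the tumors and 67.9 (59 to 77.7) in the normal library. For both genes the normal library lay above every tumor library. It is 1 library and was dissociated differently, so no test was made and tissue, disease and preparation cannot be told apart. Cldn5 counted 6, 24, 16 and 2 UMIs in all tumor columnar-like cells and Cldn1 0, 6, 1 and 3; the normal columnar-like cells had 0 of either, which allows up to 0.969 CPM.

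Claudin UMIs were also found in immune-like cells (T cell-like, B cell-like and neutrophil-like cells, which are not known to make these epithelial claudins and are used here as a level of free RNA). Most were neutrophil-like in day 1 replicate 1, day 1 replicate 2 and day 3 (67 of 72, 390 of 418 and 27 of 27 cells). In day 6 most were T cell-like (159 of 182), and all 43 of the normal library were B cell-like. Ratios to this class therefore rest on different cells in different libraries. Cldn7 stood at 677, 461, 742 and 760.1 CPM in immune-like cells in the tumor libraries and 129.5 in the normal library, so the columnar-like level was 1.11, 1.48, 1.15 and 2.58 times the immune-like level in the tumors and 12.8 times in the normal library. Day 3 columnar-like cells did not stand above immune-like cells in Cldn3 (669 against 679.9 CPM) or by much in Cldn4 (433 against 417 CPM), over 27 immune-like cells. Columnar genes outside the junction were counted there too: 12 genes of gut epithelium from the columnar marker list (such as Cdh17, Muc13 and Lgals4) had 71.2, 75.9, 74.8 and 39.1% of their columnar-like CPM in tumor immune-like cells, and 7.05% in normal ones. That level depends on the class chosen: in day 1 replicate 2 it was 78.1% in neutrophil-like and 51.7% in T cell-like cells. Macrophage-like cells of day 1 replicate 1, day 1 replicate 2 and day 6, with more UMIs a cell, had 39.1, 45.4 and 22.9%, and plasma-like cells 37.2, 26.3 and 25.3%. These percentages also depend on the columnar-like level they are set against. The 12 genes stood at 164, 218, 101 and 82.4% of it in tumor goblet-like cells and 63.4% in normal ones. In unnamed epithelial cells they stood at 223% in day 1 replicate 2 and 83% in day 6. Cldn7 stood at 344, 208 and 413 CPM in those macrophage-like cells, at median depths of 3634, 4847 and 4139 UMIs, beside 2292, 2148 and 1948 UMIs in immune-like cells. Of the 7 claudins that could be tested over the 4 tumor libraries, 1 was called higher in columnar-like than in immune-like cells, Cldn8 (log2 fold change 1.84, SE 0.48, edgeR adjusted p = 0.0133), with 14.5% of 12662 genes called either way. Cldn3 had a log2 fold change of 0.80, SE 0.28, edgeR adjusted p = 0.0632, Cldn4 a log2 fold change of 0.61, SE 0.29, edgeR adjusted p = 0.186, and Cldn7 a log2 fold change of 0.53, SE 0.29, edgeR adjusted p = 0.259. The call of Cldn8 was lost without day 1 replicate 1, day 3 or day 6 (0 claudins called without each). A tumor cell with 1 UMI of Cldn2, Cldn3, Cldn4 or Cldn7 was therefore not read as a cell that makes it.

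Tumor goblet-like cells, which make mucus and were kept apart from the columnar class, had Cldn15 at 31.4, 38.4, 40.6 and 46.2 CPM and normal ones at 156, above the columnar-like cells of the same library in all 5 libraries. Cldn2 was also above the columnar level in goblet-like cells of each library, at 308, 602, 861 and 277 CPM in the tumors and 313 in the normal library. No test was fitted for goblet-like cells. They numbered 268, 69, 64 and 44 in the tumors and 69 in the normal library. In day 1 replicate 1 the name was unstable: with finer clusters (Leiden resolution 2) only 68 cells had it, and 208 epithelial cells were left unnamed. The larger tumor goblet-like cluster also had Lyz1 and Ang4 of Paneth cells among its leading genes. The unnamed epithelial cells of day 1 replicate 2, led by genes such as Defa17 and Itln1 of Paneth cells, had 617 CPM of Cldn4, 467 of Cldn3 and 1461 of Cldn7, each above the columnar-like cells of that library. The 12 columnar markers were above the columnar-like level in these cells too, at 223% of it. The unnamed cells of day 6 had 1685 CPM of Cldn7 and 47.5 of Cldn4, each below the columnar-like cells of that library.

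**Figure D2:**
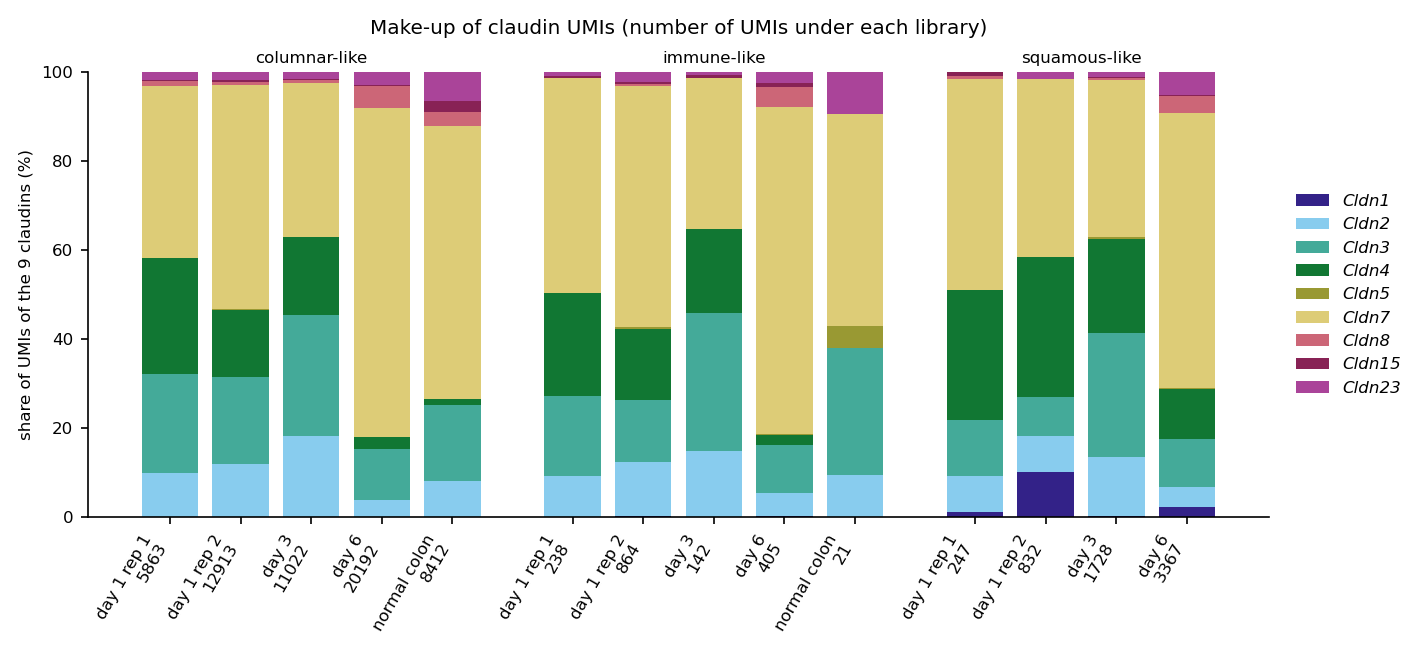
Share of each claudin among the UMIs of the 9 claudins (vertical axis, percent) in columnar-like, immune-like and squamous-like cells of each library (horizontal axis), as stacked bars that add to the whole. Within each tumor library the immune-like bar resembles the columnar-like bar, with Cldn7 at 73.8% and 73.3% in day 6, while Cldn1 has its largest shares in squamous-like cells of day 1 replicate 2 (10.2%) and day 6 (2.23%).

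Squamous-like cells carried Cldn1 and had lower levels of 5 of the other claudins than columnar-like cells, while Cldn4 went in opposite directions in different libraries. Cldn1 counted 3, 85, 4 and 75 UMIs in squamous-like cells, or 8.06, 82.6, 3.66 and 16.3 CPM, against 0, 6, 1 and 3 UMIs in columnar-like cells of the same libraries. The intervals were 1.66 to 23.6, 66 to 102, 0.996 to 9.36 and 12.8 to 20.4 CPM, so the level was clearly highest in day 1 replicate 2 and rested on few UMIs in day 1 replicate 1 and day 3. Every squamous-like sum lay above its columnar-like partner, which lay at or under 0.63 CPM. With library as a block, 6 of the 9 claudins were called between squamous-like and columnar-like cells, 1 higher and 5 lower; of all 13564 genes 15.3% were called, 7.2% higher and 8.13% lower. Cldn1 was the claudin called higher (log2 fold change 6.25, SE 0.61, edgeR adjusted p = 0.000618); with so few columnar UMIs the size of this fold depends on the fit and is no bound.

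Against immune-like cells of the same libraries, Cldn1 was higher in squamous-like cells too (log2 fold change 4.38, SE 0.72, edgeR adjusted p = 9.61e-05). Immune-like cells counted 0, 3, 0 and 1 UMIs of it. Squamous-like cells were not the only ones with Cldn1. Fibroblast-like cells of day 6 had 37.3 CPM (13.7 to 81.3) from 6 UMIs, above the squamous-like value of that library with overlapping intervals. Those of the other tumor libraries counted 0, 1 and 0 UMIs. Over the tumor libraries together, plasma-like cells had 5.88 CPM from 6 UMIs, enteroendocrine-like cells 5.97 from 4 and T cell-like cells 6.62 from 3. Each of these was above the squamous-like level of day 3. After thinning each cell to 1000 UMIs, 1.82, 3.78, 0 and 1.12% of squamous-like cells had a Cldn1 UMI, against 0, 0.239, 0 and 0% of immune-like cells; unthinned, the shares were 5.45, 21.1, 1.48 and 6.92% and 0, 0.718, 0 and 0.549%, at median depths of 4479, 2573, 3177 and 5579 and 2292, 2148, 1993 and 1948 UMIs. Thinning left out 0, 0, 0 and 24 squamous-like and 0, 0, 0 and 4 immune-like cells. The thinned share of day 3 was 0, and no Cldn1 use was detectable there above background at this depth.

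The 5 claudins called lower in squamous-like than in columnar-like cells were the sealing Cldn3, Cldn7, Cldn8 and Cldn23 and the channel-former Cldn2. Cldn3 stood at 83.3, 70, 440.4 and 79 CPM in squamous-like cells, below the columnar-like level of each library (log2 fold change -1.65, SE 0.30, edgeR adjusted p = 0.0067), with day 3 apart from the rest. Cldn7 stood at 315, 323, 556 and 452 CPM, also below columnar-like cells in each library (log2 fold change -1.21, SE 0.30, edgeR adjusted p = 0.0254), though it remained the most counted claudin. Cldn2 stood at 53.8, 65.1, 209 and 33.4 CPM (log2 fold change -1.41, SE 0.22, edgeR adjusted p = 0.00382). Cldn8 stood at 5.38, 0, 7.31 and 27.6 CPM (log2 fold change -2.17, SE 0.41, edgeR adjusted p = 0.00829), with day 6 highest as in columnar-like cells. Cldn23 stood at 0, 12.6, 16.4 and 37.5 CPM (log2 fold change -1.35, SE 0.39, edgeR adjusted p = 0.0496), a call that 7 of 14 alternatives did not keep. Cldn4 was not called: it stood at 194, 255, 334 and 82.4 CPM, below the columnar-like cells in day 1 replicate 1 and day 3 and above them in day 1 replicate 2 and day 6 (log2 fold change -0.26, SE 0.29, edgeR adjusted p = 0.632). Cldn15 (log2 fold change -1.64, SE 0.68, edgeR adjusted p = 0.149) and Cldn5 (log2 fold change 0.30, SE 0.69, edgeR adjusted p = 0.841) were not called and rested on at most 8 squamous UMIs in any library. Without day 1 replicate 1 only 3 claudins were called, Cldn1, Cldn2 and Cldn8, and with no library block only Cldn1.

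Read against immune-like cells, squamous-like cells had less Cldn3 (log2 fold change -0.77, SE 0.27, edgeR adjusted p = 0.0428), and of the 7 claudins tested 2 were called, with 23.2% of 10169 genes. The call of Cldn3 was lost in 8 of 9 alternatives. Cldn7 (log2 fold change -0.63, SE 0.24, edgeR adjusted p = 0.0617) and Cldn2 (log2 fold change -0.71, SE 0.28, edgeR adjusted p = 0.0782) were below the immune-like level without passing the test, and Cldn4 had a log2 fold change of 0.41, SE 0.34, edgeR adjusted p = 0.419. The 12 columnar markers stood in squamous-like cells at 32.1, 36.8, 56.2 and 17.5% of their columnar-like CPM, lower than in immune-like cells of each library. Cldn4 in squamous-like cells was 0.597, 1.86, 0.799 and 3.58 times the immune-like level, above it in day 1 replicate 2 and day 6 and below it in the single index libraries. The part of free RNA in the squamous-like levels of Cldn2, Cldn3 and Cldn7 was not tested beyond these ratios.

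Squamous-like cells fell into 5 clusters that differed in Cldn1, Cldn4 and Cldn23. Cluster 14, led by genes that include Krt4 and Krt13 of the upper layers, had a summed CPM of suprabasal markers 1.3 times that of basal markers; cluster 7, led by Trp63, Col17a1 and Krt14 of the basal layer, had 0.293 times. The ratios differed through the suprabasal markers, which summed to 27707 CPM in cluster 14 and 6074 in cluster 7. The basal markers were alike, at 21321 and 20746 CPM. Krt14 was no lower in cluster 14 (11553 against 10506 CPM), while Trp63 was (236 against 610). Cluster 14 is therefore not a cluster without basal keratins. Both clusters held cells of day 1 replicate 2 and day 6. Cldn1 stood at 169.9 CPM (124 to 227) in cluster 14 and 54.2 (35.4 to 79.5) in cluster 7 in day 1 replicate 2, and at 26.4 (20.2 to 34) and 5.87 (3.03 to 10.3) in day 6. Cldn4 stood at 635 CPM in cluster 14 and 111 in cluster 7 in day 1 replicate 2, and at 130.0 and 29.4 in day 6. Cldn23 stood at 25.8 and 2.09 CPM in day 1 replicate 2, and at 60.2 and 11.3 in day 6. In both libraries cluster 14 was higher in the 3 genes, and the intervals of Cldn1 did not overlap. Cells of a library are not replicates, and cluster 14 held 16 cells of day 1 replicate 2, so these are values of 2 libraries with no test. Cldn4 in cluster 7 was close to the immune-like level, 111 against 137 CPM in day 1 replicate 2 and 29.4 against 23 in day 6, while cluster 14 lay above it in both. Cluster 18, of day 6 and led by Krt1 and Krt10, had 7.84 CPM of Cldn1 (0.949 to 28.3) from 2 UMIs, near cluster 7 of that library, although its suprabasal sum was 1.06 times the basal one. Cluster 22, of day 1 replicate 2 with Krt6a and Krt16 and a ratio of 0.652, had 47 CPM from 13. Cluster 10, with a ratio of 1.14, had 11.5 CPM in day 1 replicate 1 and 3.66 in day 3. Within day 6, Cldn1 in clusters 14, 18 and 7 stood in the order of this ratio, though cluster 18 rests on 2 UMIs. In day 1 replicate 2, cluster 22 stood below cluster 7 despite its higher ratio, but inside the interval of cluster 7. With so few UMIs, and cluster 10 in other libraries, whether Cldn1 follows this ratio cannot be told.

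**Figure D3:**
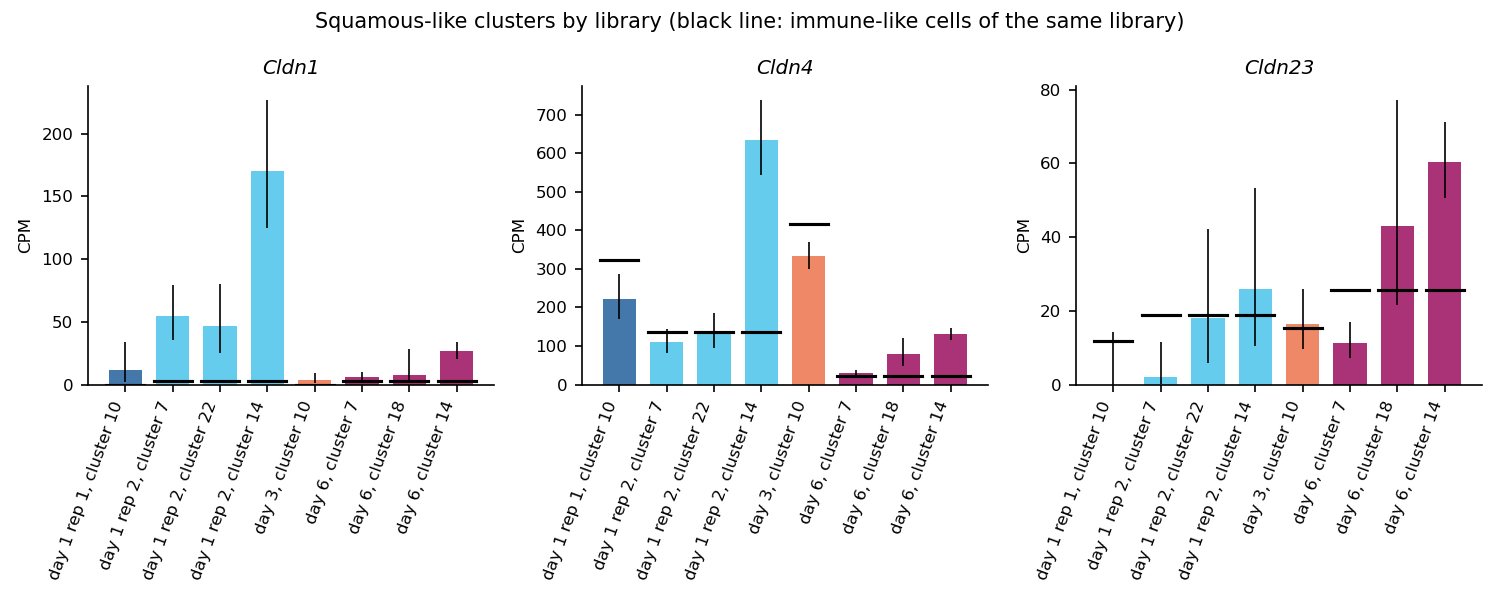
Levels of Cldn1, Cldn4 and Cldn23 in CPM (vertical axis) in the squamous-like clusters of each tumor library (horizontal axis), with exact 95% Poisson intervals as bars; the black line is the level in immune-like cells of the same library. Cluster 14 lies above cluster 7 for the 3 genes in both libraries that hold them, for Cldn4 at 635 against 111 in day 1 replicate 2.

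Between late and early tumor libraries, no columnar claudin passed the test, and several stood apart in 1 library. Cldn7 and Cldn8 were high in day 6 alone, Cldn2 and Cldn3 in day 3 (with the weakly columnar cluster 8 included), and Cldn4 was low in day 6 alone. Cldn2, Cldn3 and Cldn4 were also each higher in both single index tumor libraries than in both dual index ones. In edgeR 0 of the 8 claudins tested were called in columnar-like cells, as were 0% of all 13412 genes; at an unadjusted p under 0.05 the counts were 4 claudins and 2443 genes, and DESeq2 called 813 genes and 1 claudin, Cldn8. Cldn8 had the largest fitted difference of the 8 (log2 fold change 2.80, SE 0.97, edgeR adjusted p = 0.222), from 18.9, 10.6, 16.6 and 128 CPM, where day 3 lay inside the early range. Cldn7 (log2 fold change 1.44, SE 0.58, edgeR adjusted p = 0.265), Cldn23 (log2 fold change 1.35, SE 0.49, edgeR adjusted p = 0.235) and Cldn15 (log2 fold change 1.47, SE 0.53, edgeR adjusted p = 0.232) were higher in both late libraries than in both early libraries without passing the test, in Cldn15 from 15 to 81 UMIs a library. Without day 3, where 1 late library remains and is assumed to vary like the early ones, 2 claudins were called, Cldn8 and Cldn23. Different clusters made up the columnar-like class in each group: 4, 6 and 15 held most of the day 1 cells, 8, 9 and 11 those of day 3, and 2 and 13 those of day 6, so a change within a cell and a change in which cells are present cannot be told apart.

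In squamous-like cells 0 of 6 claudins and 0% of 9727 genes were called in edgeR between late and early libraries. At an unadjusted p under 0.05 there were 2 claudins and 391 genes, and DESeq2 called 18 genes and 0 claudins. Cldn1 had a log2 fold change of -2.07, SE 0.90, edgeR adjusted p = 0.999, and Cldn3 a log2 fold change of 1.94, SE 0.77, edgeR adjusted p = 0.999; without day 1 replicate 1, which has 3 Cldn1 UMIs, 1 claudin was called, Cldn1. The late against early change was also not called different between squamous-like and columnar-like cells for any of the 9 claudins (0% of 13564 genes called in edgeR, 1448 genes and 1 claudin at an unadjusted p under 0.05; DESeq2 80 genes and 0 claudins). The nearest was Cldn1 (log2 fold change -2.50, SE 1.09, edgeR adjusted p = 0.465). Without day 3, 1 claudin was called, Cldn7. These fits rest on 2 libraries against 2. On simulated counts with a log2 change of 2 and a dispersion of 0.05, edgeR recovered 87 of 194 changed genes for the difference between the classes. A change of that size can thus be missed there.

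In the normal library, the columnar-like cells split into 3 clusters that differed in their claudins. Cluster 13 (26 cells) was led by cell cycle genes such as Top2a and Cdk1, cluster 0 (161 cells) by Aqp4, and cluster 1 (141 cells) by Aqp8, Car4, Slc26a3 and Krt20 of surface colonocytes. The channel-formers were lower at each step: Cldn2 stood at 447, 258 and 42.5 CPM, and Cldn15 at 146, 76.9 and 14.9. Of the sealing genes, 4 were higher at each step: Cldn23 stood at 39.7, 145 and 295 CPM, Cldn8 at 42.4, 66.1 and 157, Cldn7 at 1123, 1503 and 2231, and Cldn3 at 252, 408 and 682. Cldn4 kept no such order, at 60.9 (38.6 to 91.4), 26 (19.2 to 34.5) and 56.2 (41.6 to 74.3) CPM. The intervals of cycling and surface clusters did not overlap for Cldn2 (383 to 520.2 and 29.9 to 58.5), Cldn15 (109.7 to 189.5 and 7.94 to 25.5), Cldn23 (22.2 to 65.5 and 260.0 to 333) or Cldn8 (24.2 to 68.8 and 132 to 186). Immune-like cells of this library had 25.9 CPM of Cldn2 and 25.9 of Cldn23, each from 2 UMIs. This is 1 library, and the clusters were made without the claudins but with genes that vary with them.

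Day 6 was the tumor library with a similar pair of clusters, Aqp4-led cluster 13 (which has Cldn8 among its 10 leading genes) and cluster 2, led by Saa1, Ido1 and Nos2, genes of inflamed epithelium. Cldn2 stood at 147 CPM in the former and 35.9 in the latter, and Cldn15 at 16.6 and 2.66. Cldn23 stood at 36.2 and 132 CPM and Cldn7 at 1669 and 2458. The order of these 4 genes was that of clusters 0 and 1 of the normal library. Cldn8 was not: it stood at 157 CPM in cluster 13 and 92.1 in cluster 2. Cldn4 was higher in cluster 2 (149 against 22.3 CPM), while in the normal library both the surface and the cycling cluster were above the Aqp4-led one. In day 3, cluster 11, led by Gpx2 and Clu and with Cldn2 itself among its 10 leading genes, had 672 CPM of Cldn2 against 194 in cluster 9, led by Gprc5a and Dmbt1, which had more Cldn4 (529 against 399). Of the day 1 replicate 2 clusters, 15 (led by Reg3b and Cftr) had 231 CPM of Cldn2, and 4 (led by the Wnt targets Wif1 and Nkd1) 121, at 968 and 488 CPM of Cldn7. Cluster 6, led by Pkhd1, Pvt1 and Rnf43, held 360 of the 856 columnar-like cells of that library. Over all its cells it had 74.6 CPM of Cldn2, 88.8 of Cldn3 and 356 of Cldn7, the last below the immune-like level of that library.

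**Figure D4:**
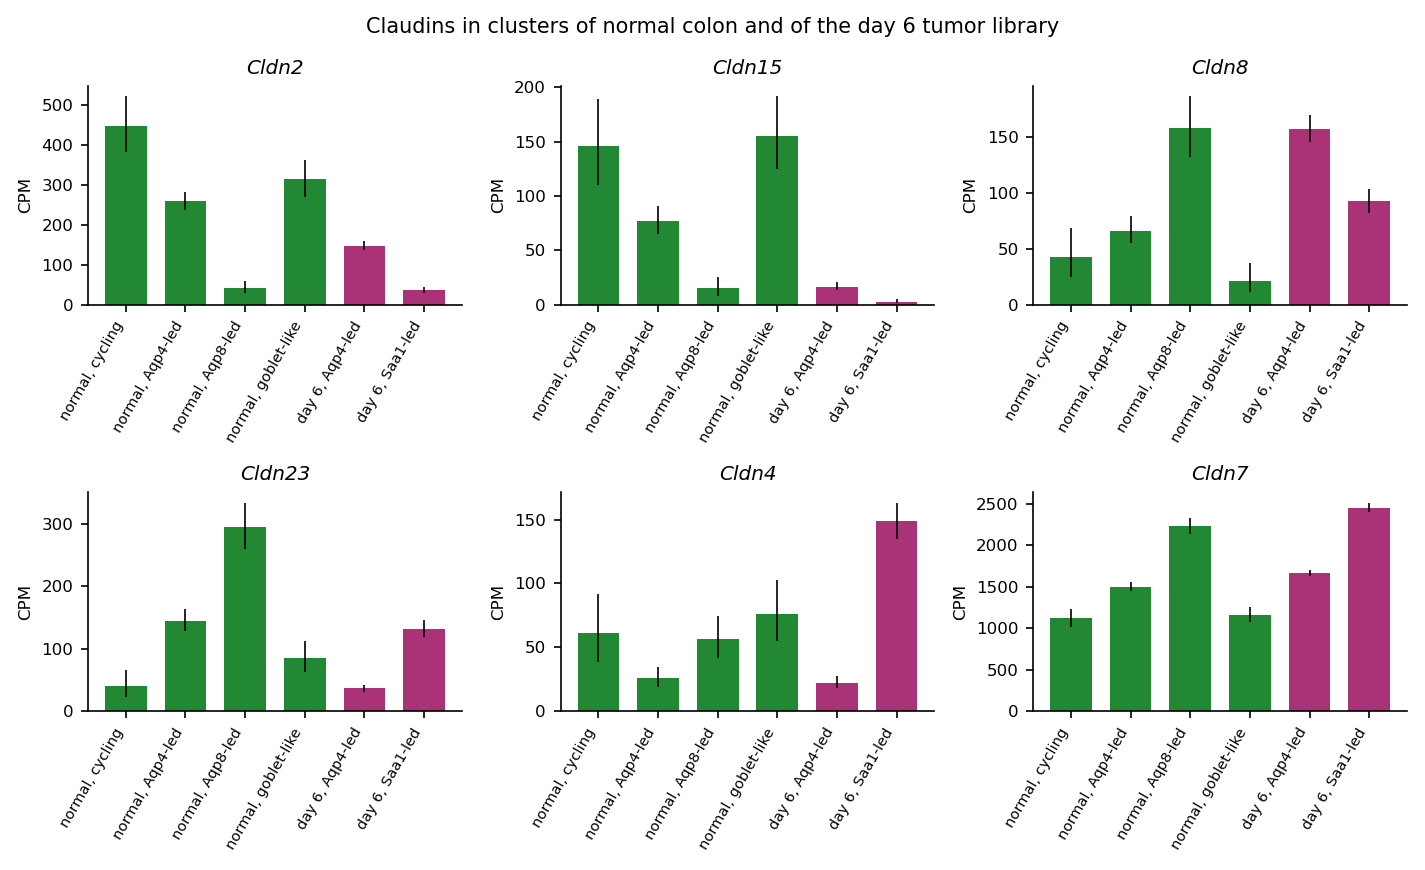
Levels of Cldn2, Cldn15, Cldn8, Cldn23, Cldn4 and Cldn7 in CPM (vertical axis) in the cycling, Aqp4-led, Aqp8-led and goblet-like clusters of the normal library and the Aqp4-led and Saa1-led clusters of day 6 (horizontal axis), with exact 95% Poisson intervals as bars. From cycling to Aqp8-led cells Cldn2 goes from 447 to 42.5 and Cldn23 from 39.7 to 295.

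Endothelium carried Cldn5, and lymphatic more than blood endothelium. Blood endothelial-like cells had 15, 63, 37.5 and 0 CPM of Cldn5 in the tumors, from 2, 19, 13 and 0 UMIs, and 257 (188 to 342) in the normal library from 46 UMIs. The 0 of day 6 comes from 14 cells and allows up to 54.9 CPM. The normal value lay above the interval of every tumor library (1.82 to 54.3, 37.9 to 98.4, 20 to 64.1 and 0 to 67.5 CPM), in 1 library that was dissociated differently. The 12 blood endothelial markers also summed higher there, to 19893 CPM against 3659.9 to 10178 in the tumors, and their part in the Cldn5 difference was not tested. Over the 4 tumor libraries 7 of 8 claudins were called between blood endothelial-like and columnar-like cells, 1 higher and 6 lower, with 18.5% of 12322 genes called, 9.58% higher and 8.93% lower. Cldn5 was higher (log2 fold change 3.69, SE 0.64, edgeR adjusted p = 0.000378), and without day 1 replicate 2 its adjusted p in edgeR was 0.0496. Thinned to 1000 UMIs, 8.33, 3.28, 3.28 and 0% of tumor and 9.09% of normal blood endothelial-like cells had a Cldn5 UMI, against 0, 0.239, 0 and 0.562% and 2.63% of immune-like cells; unthinned, 16.7, 13.1, 11.5 and 0% and 20.8% against 0, 0.718, 0 and 0.549% and 2.33%. Median depths were 5949.5, 4112, 4213, 2368 and 2867 UMIs in blood endothelial-like cells with the normal library last. Thinning left out 4 normal cells and no tumor cell.

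The claudins called lower in blood endothelial-like than in columnar-like cells were Cldn3 (log2 fold change -2.07, SE 0.37, edgeR adjusted p = 0.000454), Cldn7 (log2 fold change -1.71, SE 0.31, edgeR adjusted p = 0.00067), Cldn4 (log2 fold change -1.50, SE 0.32, edgeR adjusted p = 0.00236), Cldn2 (log2 fold change -1.31, SE 0.31, edgeR adjusted p = 0.00605), Cldn8 (log2 fold change -1.84, SE 0.55, edgeR adjusted p = 0.0251) and Cldn23 (log2 fold change -1.46, SE 0.48, edgeR adjusted p = 0.0401); Cldn15 was not called (log2 fold change -1.08, SE 0.95, edgeR adjusted p = 0.494). Their counts in the endothelial cells were not 0: Cldn7 stood at 278, 222, 557 and 274 CPM in the tumors, against 677, 461, 742 and 760.1 in immune-like cells, and these 12 columnar markers at 25.7, 35.7, 70.4 and 24.0% of their columnar-like CPM. Against immune-like cells, Cldn7 (log2 fold change -1.10, SE 0.28, edgeR adjusted p = 0.00607), Cldn3 (log2 fold change -1.27, SE 0.36, edgeR adjusted p = 0.0107) and Cldn4 (log2 fold change -0.98, SE 0.32, edgeR adjusted p = 0.0283) were lower in blood endothelial-like cells, 3 of the 4 claudins tested, beside 25% of 6755 genes. Without day 1 replicate 2, 0 of the 4 were called, and 1 claudin, Cldn5, was called without day 1 replicate 1. Cldn5 had too few UMIs for the test over all 4 libraries. Cldn15, a channel-former of gut epithelium, had 0, 0, 8.65 and 0 CPM in tumor blood endothelial-like cells (a 0 allows up to 22.5, 9.95 and 54.9) and 123 (76.9 to 186) in normal ones. This normal level, from 22 UMIs, lay above that of the columnar-like cells of the same library (67.9 CPM, 59 to 77.7), and the immune-like cells had 0, which allows up to 38.9. The lymphatic cells of that library also had 0, which allows up to 54.1.

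Lymphatic endothelial-like cells, the cells of the vessels that drain tissue fluid, had the highest Cldn5 of any class here. They had 532, 324 and 355 CPM in day 1 replicate 2, day 3 and day 6, from 119, 33 and 78 UMIs, and 1335 (1048 to 1676) in the normal library; the 3 cells of day 1 replicate 1 had 5 UMIs. The level was above that of blood endothelial-like cells in each of these libraries, and the normal library was again above the tumors, whose intervals were 441 to 636, 223 to 454 and 281 to 443. The 7 lymphatic markers summed to 25701 CPM in the normal library, also above the tumors. Over the 3 tumor libraries with at least 10 cells of each kind, 1 of 5 claudins was called between lymphatic and blood endothelial-like cells, Cldn5 (log2 fold change 3.25, SE 0.36, edgeR adjusted p = 7.45e-06), beside 7.37% of 6000 genes. It was called in each of 8 alternatives. Thinned, 38.9, 40 and 35.8% of lymphatic cells had a Cldn5 UMI in those libraries and 70.6% in the normal library; unthinned, 80.6, 76 and 58.5% and 85.7%, at median depths of 4868, 2200.0 and 2449.5 and 1952 UMIs. Thinning left out 0, 0 and 1 cells in those libraries and 4 in the normal library. Cldn5 made up 96.1% of the claudin UMIs of normal lymphatic cells and 42.2% of those of normal blood endothelial-like cells. In the tumors it was 49.4, 15.6 and 28.1% of the lymphatic claudin UMIs, and Cldn7, Cldn3, Cldn4 and Cldn2 made up most of the rest.

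The junction genes Esam and Jam2 marked the vessels in the opposite order to Cldn5, while Pard3, given below, was higher in lymphatic cells as Cldn5 was. Esam, an adhesion protein of endothelial junctions, had 616, 365, 332 and 421 CPM in tumor blood endothelial-like cells and 1205 in normal ones, against 53.6, 19.6 and 9.11 and 72.1 in lymphatic cells. Jam2, a junctional adhesion molecule, had 263, 212, 28.8 and 311 CPM in tumor and 239.9 in normal blood endothelial-like cells and 0 in lymphatic cells of every library, where a count of 0 allows up to 13.4, 29.4 and 13.7 CPM in day 1 replicate 2, day 3 and day 6. Jam2 in day 3 blood endothelial-like cells was itself low beside the other libraries. Both genes were lower in lymphatic than in blood endothelial-like cells in the test over 3 libraries, Esam with a log2 fold change of -3.64, SE 0.41, edgeR adjusted p = 9.76e-06 and Jam2 at an edgeR adjusted p of 5.29e-06, its fold left out because the lymphatic libraries are at 0.

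**Figure D5:**
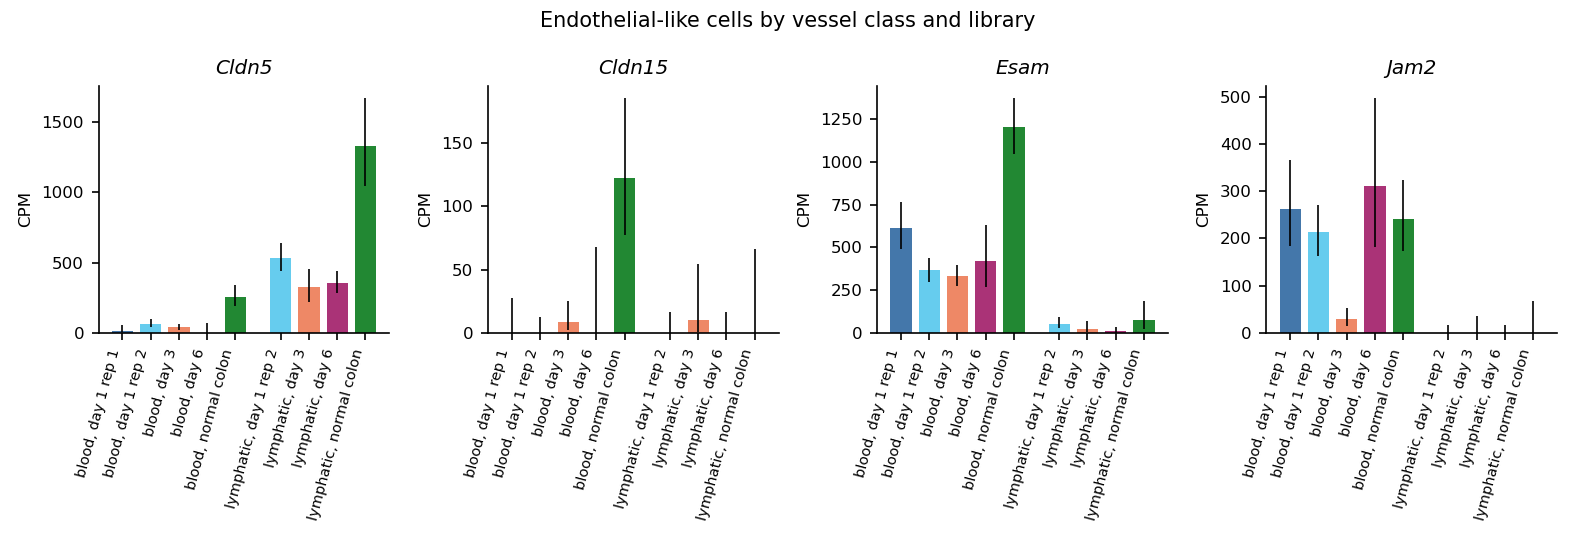
Levels of Cldn5, Cldn15, Esam and Jam2 in CPM (vertical axis) in blood and lymphatic endothelial-like cells of each library (horizontal axis), with exact 95% Poisson intervals as bars. Cldn5 is higher in lymphatic than in blood cells of the normal library (1335 against 257), Esam and Jam2 are higher in blood cells, and Cldn15 stands out in normal blood cells (123).

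Of a list of 30 other tight junction genes, 28 were in the files. Between squamous-like and columnar-like cells 27 were tested, 4 called higher and 9 lower, beside 15.3% of all genes, with a median log2 difference of -0.53 beside -0.08 over all genes; the median of the 9 claudins was -1.35. The multi-domain scaffold Mpdz was higher in squamous-like cells, at 26.9, 19.4, 11.9 and 26.3 CPM against 4.32, 3.46, 2.02 and 1.71 (log2 fold change 2.98, SE 0.35, edgeR adjusted p = 0.00112), as was the polarity protein Pard3, at 349, 273, 161 and 384 against 108, 188, 70.5 and 104 (log2 fold change 1.37, SE 0.22, edgeR adjusted p = 0.00419). Cingulin (Cgn), which ties the junction to the cytoskeleton, was lower, at 29.6, 52.5, 93.2 and 61.8 against 114, 138, 198 and 151 (log2 fold change -1.34, SE 0.21, edgeR adjusted p = 0.00348), and so was Ildr1 of tricellular contacts, at 29.6, 29.2, 82.2 and 46.4 against 107, 101, 143 and 175 (log2 fold change -1.53, SE 0.26, edgeR adjusted p = 0.00485). Between late and early columnar-like cells 0 of 25 of the list were called, and 0 of 25 in squamous-like cells, where 0% of all genes were called. The 4 with the lowest p were Amotl1, Ildr1, Cgn and Pard6b in columnar-like cells (edgeR adjusted p = 0.21 to 0.264), and Tjp3, Ildr1, Amotl1 and Cgn in squamous-like cells (edgeR adjusted p = 0.999 for each). For the difference of these changes between the classes, 0 of 27 were called, with Pard6b, Ocln, Ybx3 and Prkci lowest in p (edgeR adjusted p = 0.44 to 0.595). Between blood endothelial-like and columnar-like cells 6 of 27 were higher, led by Esam (log2 fold change 6.90, SE 0.41, edgeR adjusted p = 1.14e-09), Jam2, Mpdz and Amotl1, and 11 lower, beside 18.5% of all genes. Between lymphatic and blood endothelial-like cells 1 of 20 was higher, Pard3 (log2 fold change 1.38, SE 0.37, edgeR adjusted p = 0.0264), and 2 lower, beside 7.37% of all genes; the next in p, Cgnl1, was not called (log2 fold change 0.73, SE 0.53, edgeR adjusted p = 0.648).

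Of the 20 other claudin family genes, 5 had at least 100 UMIs: Cldnd1 4216, Cldn12 1116, Cldn14 533, Cldn6 153 and Cldn10 124. Cldn14, known from kidney and inner ear, was concentrated in enteroendocrine-like cells, the hormone cells of the gut: they held 32, 78, 1 and 174 of its UMIs in the tumor libraries, in 2 of 11, 8 of 17, 1 of 9 and 21 of 40 cells. That is 623 CPM in day 6, against 2.5 in columnar-like and 7.68 in immune-like cells of the same library. Columnar-like cells of the normal library had 22.9 CPM and normal goblet-like cells 104 CPM of Cldn14. Cldn6, a claudin of embryonic epithelium, had its highest level in columnar-like cells of day 1 replicate 1 (14.6 CPM, 44 UMIs) with 7.45 in day 1 replicate 2 and 1.12 and 0.92 in day 3 and day 6; immune-like cells of day 1 replicate 1 had 11.8 CPM from 2 UMIs. Cldnd1, a relative with a claudin domain, was spread over all classes, between 57.2 and 94 CPM in columnar-like cells, 77.7 and 148 in squamous-like cells and 29.4 and 142 in immune-like cells. Among normal fibroblast-like cells, cluster 2 had 14 Cldn1 UMIs (27.1 CPM, 14.8 to 45.5), the only Cldn1 UMIs of the fibroblast-like cells of that library and most of its 18.

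Across 46 sums of a class in a library, with at least 20 cells each and on the scale log2(CPM + 10), the claudins most alike were Cldn3 with Cldn7 (r = 0.87) and with Cldn2 (r = 0.87), and the neighbours Cldn3 and Cldn4 had r = 0.79. Cldn5 ran against Cldn7 (r = -0.30). These sums share libraries and free RNA and are not independent, so the correlations are descriptions. The 3 genes nearest to Cldn7 were Muc13 (r = 0.95), Tmprss2 (r = 0.95) and Lgals4 (r = 0.95) and those nearest to Cldn5 were Flt4 (r = 0.95), Podxl (r = 0.92) and Fgd5 (r = 0.90). Those nearest to Cldn3 were Gpa33 (r = 0.94), Tmprss4 (r = 0.94) and Ppp1r1b (r = 0.93); to Cldn4, Krt23 (r = 0.91), Krt7 (r = 0.90) and Lsr (r = 0.90); and to Cldn2, Tsta3 (r = 0.90), Tmprss4 (r = 0.89) and Muc3a (r = 0.88). Weaker were those of Cldn8, Apol10a (r = 0.84), Gsdmc4 (r = 0.77) and Gsdmc2 (r = 0.77), of Cldn23, Car2 (r = 0.80), Ifi27l2b (r = 0.79) and Cdhr2 (r = 0.78), of Cldn15, Fgfr3 (r = 0.77), Klk1 (r = 0.76) and Cox7a1 (r = 0.72), and of Cldn1, Epha7 (r = 0.68), Defb14 (r = 0.66) and Ifi202b (r = 0.65).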

How the data were processed

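Single cells were encapsulated with inDrop. The authors aligned and counted the reads with dropEst on GRCm38.85 and deposited the UMI count of each gene in each barcode, unnormalized, in a file for every library (the dropEst version is not given in the sources used here). The 5 files held 752, 2450, 1419, 2830 and 1108 barcodes and 5132360, 16904947, 6659486, 16079367 and 5814641 UMIs in the order day 1 replicate 1, day 1 replicate 2, day 3, day 6 and normal. Barcodes with at least 500 genes and at most 15% mitochondrial UMIs were kept (748, 2403, 1419, 2826 and 1095 cells). Pairs of libraries shared 4 to 42 barcodes.

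Tumor and normal cells were clustered apart with Leiden at resolution 1 (leidenalg 0.10.2), on 20 components of 2000 variable genes that held no claudin or junction gene, although genes correlated with them stayed in. A cluster was named from marker lists where the mean log2 fold of the list was at least 2, and remaining clusters were set against non-epithelial cells as columnar or squamous. The limits of this rule, and the step that leaves epithelial clusters with other leading markers unnamed, were set after clusters and claudin values had been seen. Scrublet called 19 of 8491 cells, too few to have worked, so no doublets were removed. In an alternative, the 512 cells with the highest scores were.

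UMI counts were summed per library and class, with at least 10 cells a sum, and fitted in edgeR 4.0.16 (R 4.3.3; TMM, filterByExpr, quasi-likelihood test, Benjamini-Hochberg over all genes tested, called at 0.05). The SE is that implied by the F statistic. Library was a block wherever classes were compared. The paper calls the libraries biological replicates, and the p-values measure the spread between these libraries. The comparisons with immune-like cells and of lymphatic with blood endothelial-like cells were added after the data were seen. Alternatives were DESeq2 1.42.0, no filter on low counts, each library left out, Leiden resolutions 0.5 and 2, doublet removal, other class definitions and, for late against early, library structure as a block. The code was tested on simulated data.

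Named genes were the 9 claudins, other family genes with at least 100 UMIs, the 4 junction genes with the lowest p in each planned comparison and in lymphatic against blood endothelial-like cells, and the 3 genes most correlated with each claudin. The genes and lists were chosen with earlier results of these data known. Gene positions are from GENCODE M21 and promoters from RefSeq.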

Additional observations from a re-analysis of the deposited data

How the results depend on the processing

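No called claudin changed direction under any alternative that tested it. Between squamous-like and columnar-like cells Cldn1 was called in each of 14 alternatives, and the count of 6 fell to 1 with no library block and to 3 to 5 when a library was left out, lowest without day 1 replicate 1. For blood endothelial-like against columnar-like cells the range was 5 to 7, and Cldn3, Cldn4, Cldn5 and Cldn7 were called in each of 11 alternatives. Late against early in columnar-like cells gave 1 claudin with DESeq2 and 1 with no filter (Cldn8 in both), and 0 to 2 when a library was left out; in squamous-like cells the range was 0 to 1, and for the difference between the classes 0 to 1. Library structure as a block called 0 claudins in columnar-like cells.

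The tests added after seeing the data moved more. Squamous-like against immune-like cells gave 1 claudin (Cldn1) in place of 2 with DESeq2, with no filter, at Leiden resolution 2 and without the cells with the highest Scrublet scores, and 0 to 2 when a library was left out; without day 1 replicate 2 or day 6 Cldn1 had too few UMIs to be tested. Blood endothelial-like against immune-like cells gave 1 in place of 3 at Leiden resolution 0.5, where the class also held lymphatic cells, and 0 to 4 when a library was left out. Columnar-like against immune-like cells gave 0 with DESeq2, 2 with no filter, 2 without the highest Scrublet scores, 3 with the unnamed epithelial clusters counted as columnar, and 0 to 1 when a library was left out. Lymphatic against blood endothelial-like cells gave 1 to 1, and at Leiden resolution 0.5 the tumor clusters of both vessels merged and no value was had. The cause of these shifts was not tested.

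The median summed level of the 9 claudins in tumor columnar-like cells, a summary chosen after the data were seen, was 2209 CPM, 526 CPM after the level of immune-like cells was subtracted, and 1094 CPM with that of macrophage-like and plasma-like cells instead (4 cells in day 3), an alternative added after the data were seen. The immune-like subtraction moved 62 of 75 single levels beyond their counting interval, Leiden resolution 0.5 moved 13 of 65, Scrublet removal 4 of 75, and Leiden resolution 2 and all deposited barcodes 0 of 75. Levels resting on few UMIs (Cldn1 outside day 1 replicate 2 and day 6, Cldn5 in tumor blood vessels, Cldn15 in vessels) are limited by depth. No paired analysis was possible because the labels give no replicate number that early and late libraries share, since the day 3 and day 6 labels carry none; the block on library structure sets day 1 replicate 1 with day 3 and day 1 replicate 2 with day 6.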
